A study of Mus musculus with 12 samples.

Results

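The first replicates are the 4 libraries numbered 1 in an RNA sequencing series of 12 libraries, 1 from each of 4 treatment arms, and they were set against the 8 libraries numbered 2 or 3. The cells came from subclone 14 of MC3T3-E1, a line of bone-forming precursors from newborn mouse skull that lays down and mineralizes a collagen matrix in culture. The members were taken by the replicate number in the sample titles, but the split was proposed after an earlier look at these data. The study asked how 2 secreted proteins, alone and together, change osteoblast differentiation.

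The BMP2+RSPO2 arm received recombinant bone morphogenetic protein 2 at 100 ng/ml and recombinant R-spondin 2 at 200 ng/ml, the BMP2 arm and the RSPO2 arm received 1 protein each at the same dose, and the Control arm received vehicle. Every arm was treated for 5 days in osteogenic medium with 10% serum, 50 µg/ml of an ascorbic acid salt and 5 mM β-glycerophosphate, so all groups shared the mineralizing supplements. BMP2 is a ligand that acts through SMAD transcription factors, and R-spondin 2 raises the Wnt signal by keeping Wnt receptors on the cell surface. A single subclone was used, so the values describe 1 clone of 1 line. The labels call the 3 replicates of an arm independent and biological and give all 12 libraries the same batch entry. They do not say whether libraries with the same number were cultured, extracted or sequenced together, so the 4 first replicates may not be independent of each other, and the p-values below measure the spread between these libraries only.

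Pre-osteoblasts in culture first multiply and secrete collagen, then leave the cell cycle while alkaline phosphatase rises, and later secrete the acidic phosphoproteins of mineralizing bone. Mki67 encodes the Ki-67 protein of dividing cells, and Top2a encodes the DNA topoisomerase that untangles chromosomes before mitosis. Spp1 encodes osteopontin and Dmp1 encodes dentin matrix protein 1, both acidic phosphoproteins that bind mineral, and Dmp1 is best known from osteocytes.

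The labelled cell type was checked against its markers before the comparison. Runx2, the master transcription factor of the osteoblast lineage, had 48.0, 33.9, 21.6 and 24.5 FPKM in the first replicates of BMP2+RSPO2, BMP2, RSPO2 and Control, and between 21.2 and 42.7 FPKM in replicates 2 and 3. FPKM is the fragment number divided by transcript length and by the mapped fragments of the library. Of 8 endothelial markers none reached 1 FPKM in 3 libraries, and of 10 adipocyte markers 1 did. Among the macrophage markers, Ptprc, Adgre1 and Itgam were listed at 0 in every library, but 3 of the 9 in the table reached 1 FPKM in 3 libraries. The summed macrophage markers came to 1.36 to 4.48 FPKM in the first replicates and 2.88 to 8.23 FPKM in replicates 2 and 3. The summed chondrocyte markers came to 13.4 to 98.0 FPKM in the first replicates and 16.7 to 251.3 FPKM in replicates 2 and 3. Acan, Col9a1 and Matn1 were listed at 0, but 7 of the 15 chondrocyte markers were tested. Among these, Col11a2 reached 221.15 FPKM, Col2a1 35.26 FPKM and Hapln1 9.68 FPKM in their highest library. Muscle genes were not low in every library either. Of 12 skeletal muscle markers 1 was tested. Their sum reached 84.07 FPKM in the first replicates (RSPO2) and 66.43 FPKM in replicates 2 and 3 (RSPO2 replicate 3). The summed smooth muscle contractile genes came to 706.2 to 2097 FPKM in the first replicates and 663.9 to 2485 FPKM in replicates 2 and 3.

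The library of BMP2+RSPO2 replicate 1 stood apart from the other 11. RNA polymerase III transcripts made up 19.1% of its summed FPKM, against 0.18% to 2.30% in the other 11 libraries, and its 10 most abundant genes made up 57.8%, against 11.4% to 19.8%. Its median histone gene was at 40.7 FPKM, against 0.32 to 2.75 FPKM, and its median ribosomal protein gene was at 305.2 FPKM, against 539.0 to 813.1 FPKM. Several results below are therefore also given without this library. Not every list count that changed is repeated: for example, 13 ribosomal protein genes were called lower with all libraries and 16 without it. The part of these RNA classes in the replicate difference was not tested beyond that.

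The first replicates differed from the other replicates of their own arm more than those differed from each other. The median absolute log2 difference in FPKM + 1 over the genes tested was 0.225 to 0.415 between a first replicate and replicate 2 or 3 of its arm, against 0.0924 to 0.158 between replicates 2 and 3. Between 493 and 1758 genes differed by more than 1 log2 unit in the pairs with a first replicate, against 147 to 314 genes in the other pairs. In a principal component analysis the first component, with 37.4% of the variance, set BMP2+RSPO2 replicate 1 apart. The second component, with 25.7%, placed every first replicate above both other libraries of its arm.

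A linear model with the arm as a covariate (limma, two-sided, Benjamini-Hochberg adjustment) was fitted to log2(FPKM + 1) of the 11548 genes that reached 1 FPKM in 3 or more libraries. At an adjusted p under 0.05, 2890 genes differed between the first replicates and replicates 2 and 3, which was 25.0% of those tested. The first replicates were higher for 1758 genes, or 15.2%, and lower for 1132 genes, or 9.80%. Of the called genes, 287 were higher and 69 were lower by more than 1 log2 unit. The share of higher genes among the calls was 60.8%, and it fell to 42.8% after quantile normalization (1423 higher and 1901 lower) and to 45.0% after median-of-ratios scaling (1490 higher and 1824 lower). The direction of the majority thus turned with the scaling. The median log2 difference over all genes tested was 0.02.

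Without BMP2+RSPO2 replicate 1 the same model called 3898 of 11455 genes, or 34.0%, with 2726 higher (23.8%) and 1172 lower (10.2%). Of the 2890 genes called with all libraries, 2528 were called in the same direction without it. Without Control replicate 1 the model called 1803 genes, with 1061 higher and 742 lower. The first replicate lay above both others in all 4 arms for 1706 genes, or 14.8%, and below both in all 4 arms for 1196 genes, or 10.4%. Together these were 25.1% of the genes tested, and 2391 of the called genes were among them. Bulk libraries cannot tell fewer cells of a type from less RNA per cell, which holds for every level given here.

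Genes of cell division were higher in the first replicates of every arm. Of the 44 mitosis and spindle genes tested, 44 were called higher, with a median log2 difference of 1.71 against 0.02 over all genes, and 43 lay above both arm mates in all 4 arms. Of 39 DNA replication genes tested, 39 were called higher with a median of 1.22. The share called higher over all genes tested was 15.2%. Leaving out single libraries kept these counts at 43 to 44 and at 35 to 39. A higher level of cell cycle genes in the first replicates was already known from an earlier look at these data when the comparison was set up, so the direction is not independent evidence.

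Mki67 had 59.2 FPKM in BMP2+RSPO2 replicate 1, 52.5 in BMP2 replicate 1, 60.3 in RSPO2 replicate 1 and 62.4 in Control replicate 1. In replicates 2 and 3 it had 10.1 and 9.34 FPKM in BMP2+RSPO2, 24.0 and 26.9 in BMP2, 10.8 and 13.2 in RSPO2, and 12.7 and 14.7 in Control. The 4 first replicates lay close together and above all 8 others, and among the others the BMP2 pair was highest. The log2 difference in FPKM + 1 was 1.97 ± 0.196 (SE, 4 libraries against 8), with an adjusted p of 0.000169 by limma. Top2a had 37.8, 51.0, 71.6 and 65.8 FPKM in the first replicates of BMP2+RSPO2, BMP2, RSPO2 and Control, and 9.20 to 26.8 FPKM with a median of 13.1 in replicates 2 and 3. Its groups did not overlap either, and its log2 difference was 1.85 ± 0.195 (SE, limma adjusted p 0.000210).

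**Figure D1:**
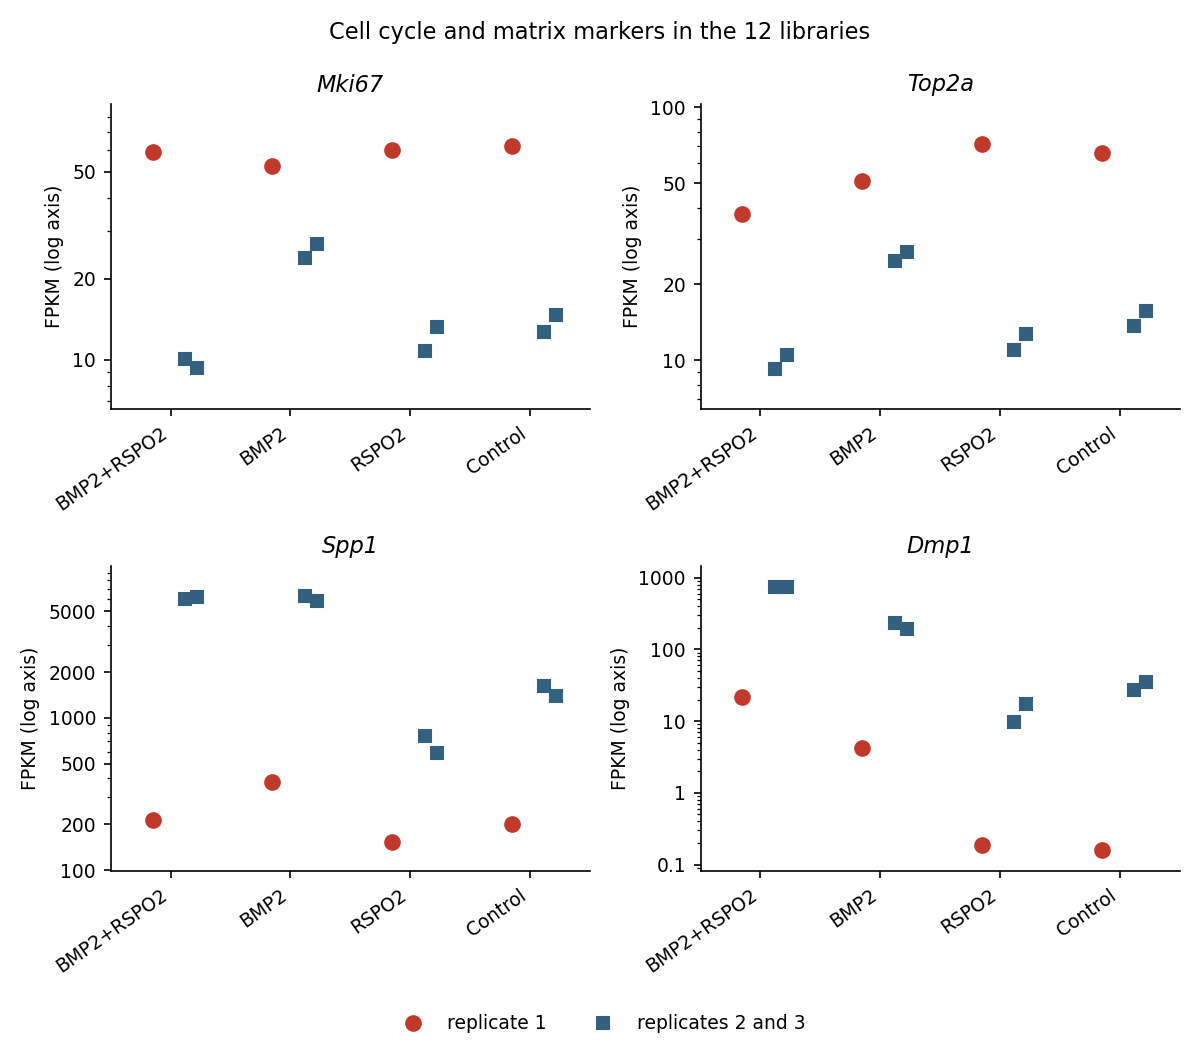
FPKM (log axis) of Mki67, Top2a, Spp1 and Dmp1 in the 12 libraries, by arm, with replicate 1 as circles and replicates 2 and 3 as squares. The circles for Mki67 lie between 52.5 and 62.4 FPKM, above all squares, and in each arm the circles for Spp1 and Dmp1 lie below both squares.

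Promoters of the division genes are shown because many genes of this list moved together. In vertebrates, the CHR element with a nearby CCAAT box is known from promoters of genes that peak in mitosis, and E2F sites from promoters of genes that peak at the start of DNA synthesis. The sequences are the 200 bases before the first listed RefSeq gene start in GRCm38.p6, written 5′ to 3′ on the gene's strand. Capitals mark CHR (TTTGAA, or TTCAAA on the other strand) and the CCAAT box (CCAAT, or ATTGG on the other strand), which share no bases here. Mki67 lies at chr7:135716380-135716579 on the minus strand, Ccnb2, which encodes cyclin B2 and was picked for display after its values were seen, at chr9:70421555-70421754 on the minus strand, and Top2a at chr11:99024190-99024389 on the minus strand.
Mki67: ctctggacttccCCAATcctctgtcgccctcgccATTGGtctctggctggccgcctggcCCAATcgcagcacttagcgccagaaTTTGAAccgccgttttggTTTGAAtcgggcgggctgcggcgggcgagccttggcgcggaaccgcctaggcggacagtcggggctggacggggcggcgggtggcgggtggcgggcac
Ccnb2: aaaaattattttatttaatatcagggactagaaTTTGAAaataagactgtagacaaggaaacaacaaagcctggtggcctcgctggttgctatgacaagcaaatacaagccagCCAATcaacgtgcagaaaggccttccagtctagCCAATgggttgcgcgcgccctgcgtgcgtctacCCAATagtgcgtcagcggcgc
Top2a: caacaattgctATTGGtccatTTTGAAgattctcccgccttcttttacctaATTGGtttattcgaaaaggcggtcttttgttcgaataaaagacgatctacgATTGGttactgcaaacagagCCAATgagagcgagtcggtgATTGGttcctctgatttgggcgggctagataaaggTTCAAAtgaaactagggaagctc

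The Mki67 stretch holds 2 CHR and 3 CCAAT matches, with the CHR matches starting 116 and 98 bases before the gene start. The Ccnb2 stretch holds 1 CHR match, 167 bases before the start, and 3 CCAAT matches. The Top2a stretch holds 2 CHR and 5 CCAAT matches. These 3 genes were displayed because they hold both matches and had the largest log2 differences among mitosis genes that do. Their matches were thus fixed by the choice and say nothing about the list. Of the 44 mitosis and spindle genes in the table, 36 matched a promoter in the RefSeq table, and 28 of these (77.8%) held a CCAAT match, 11 (30.6%) a CHR match and 10 (27.8%) both. Over all 27025 promoters of the same length the shares were 30.0%, 12.7% and 3.83%, and over the 7811 of them that belong to genes tested they were 33.3%, 7.12% and 2.66%. Over the 1196 promoters of genes called higher they were 41.1%, 11.3% and 5.43%, which include the mitosis genes. Of 32 DNA replication genes with a promoter, 7 (21.9%) held an E2F match (TTTCCCGC, TTTCGCGC, TTTGCCGC or TTTGGCGC on either strand), against 1.63% of all promoters, 3.15% of those of genes tested and 6.02% of those of genes called higher, and 17 (53.1%) held a CCAAT match. A match is a run of letters in this window and says nothing of which factor bound.

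Cep55, which encodes a protein of the final cut between daughter cells, had 17.4, 24.0, 21.8 and 22.5 FPKM in the first replicates of BMP2+RSPO2, BMP2, RSPO2 and Control, and 2.43 to 8.58 FPKM with a median of 3.44 in replicates 2 and 3. Its log2 difference of 2.20 ± 0.169 (SE, limma adjusted p 7.44e-05) was the largest of the mitosis list, and its groups did not overlap. Ckap2l, a spindle protein gene, was higher by 2.06 log2 units, Depdc1a by 1.98 and Shcbp1 by 1.96, with limma adjusted p of 8.29e-05, 0.000112 and 0.000193 in that order. Ccnb1, the cyclin that starts mitosis with Cdk1, had 10.1, 22.9, 28.6 and 29.6 FPKM in the first replicates of BMP2+RSPO2, BMP2, RSPO2 and Control, against 3.57 to 8.78 FPKM in replicates 2 and 3. Its log2 difference was 1.86 ± 0.192 (SE, limma adjusted p 0.000193), and that of Cdk1, the kinase itself, was 1.73 ± 0.159 (SE, limma adjusted p 0.000117). Foxm1, the transcription factor of late cell cycle genes, was the 1 member whose groups overlapped within an arm, and its adjusted p was 0.0209 with all libraries and 0.0523 without BMP2+RSPO2 replicate 1.

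The DNA replication genes had log2 differences between 0.45 and 1.79, which overlap those of the mitosis list, between 1.39 and 2.20. Mcm5, a subunit of the replicative helicase, had 26.9, 46.4, 49.0 and 47.9 FPKM in the first replicates of BMP2+RSPO2, BMP2, RSPO2 and Control, and 7.92 to 21.9 FPKM in replicates 2 and 3, a log2 difference of 1.59 ± 0.114 (SE, limma adjusted p 6.17e-05). Pcna, the sliding clamp of DNA polymerase, had 62.1, 156.6, 156.9 and 177.0 FPKM in the first replicates of BMP2+RSPO2, BMP2, RSPO2 and Control, and 43.4 to 75.9 FPKM in replicates 2 and 3, a log2 difference of 1.14 ± 0.152 (SE, limma adjusted p 0.000738). The BMP2+RSPO2 value of Pcna lay within the range of replicates 2 and 3 of the other arms and above both replicates of its own arm. Fen1, which trims Okazaki fragments, passed with all libraries (adjusted p 0.0375) and missed without BMP2+RSPO2 replicate 1 (adjusted p 0.0518).

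Replication-dependent histone genes, whose transcripts normally lack a poly(A) tail, rose for 10 of 16 members tested, beside 15.2% of all genes tested. The level rested on 1 library, and near-identical copies can share reads. Some members reached 1 FPKM in 3 libraries only through the first replicates, so the filter partly fixed their direction. Hist1h2bj had 1.38 to 25.7 FPKM in the first replicates and 0.14 to 1.01 FPKM in replicates 2 and 3. For Hist1h4a the ranges were 1.70 to 59.3 FPKM and 0.15 to 1.51 FPKM. Hist1h2ab had 169.9 FPKM in BMP2+RSPO2 replicate 1, and 6.28, 5.00 and 6.26 FPKM in the first replicates of BMP2, RSPO2 and Control. In replicates 2 and 3 it had 0.61 to 4.96 FPKM, so all first replicates lay above all others. Its log2 difference of 2.68 had a limma adjusted p of 0.0307, and its call was lost when any of 6 of the 12 libraries was left out (Control 1 or 3, RSPO2 2, BMP2 2, or BMP2+RSPO2 2 or 3). The list median was 2.22 with all libraries and 1.13 without BMP2+RSPO2 replicate 1. The number of members called ran from 2 (without Control replicate 1, or without BMP2+RSPO2 replicate 2) to 13 when 1 library was left out.

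Of 11 genes of cell cycle inhibitors and pocket proteins tested, 3 were called higher and 1 lower, with a median of 0.08, and 5 were called higher and 1 lower without BMP2+RSPO2 replicate 1. Over all genes tested, 15.2% were higher and 9.80% lower, and without that library 23.8% and 10.2%. Cdkn2c, an inhibitor of the G1 kinases, was higher by 0.91 ± 0.111 log2 units (SE, limma adjusted p 0.000442), and Rbl1, the p107 pocket protein whose gene is itself an E2F target, by 0.84 ± 0.123 (SE, limma adjusted p 0.00132). The remaining higher call, Cdkn2d, was 0.73 (limma adjusted p 0.0288), but -0.23 within BMP2+RSPO2. It was called in only 4 of the 12 fits that leave out 1 library. Cdkn1a, which encodes p21, had 212.8, 242.8, 254.0 and 224.5 FPKM in the first replicates of BMP2+RSPO2, BMP2, RSPO2 and Control, and 253.9 to 438.3 FPKM with a median of 342.8 in replicates 2 and 3. It was lower by a log2 difference of -0.54 ± 0.123 (SE, limma adjusted p 0.0124), and in the BMP2 arm the gap was only -0.07. Of 13 p53 target genes tested, 4 fell and 1 rose, with a median of -0.11. The rise, of Aen, was lost without the first replicate of Control or of BMP2 and after quantile normalization, which gave 6 lower and 0 higher. Among them Btg2, an antiproliferative gene, fell by 0.66 and Bbc3, which encodes the death protein PUMA, fell by 0.79 on the log2 scale. Cdkn1c did not reach the minimum level and was not tested.

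**Figure D2:**
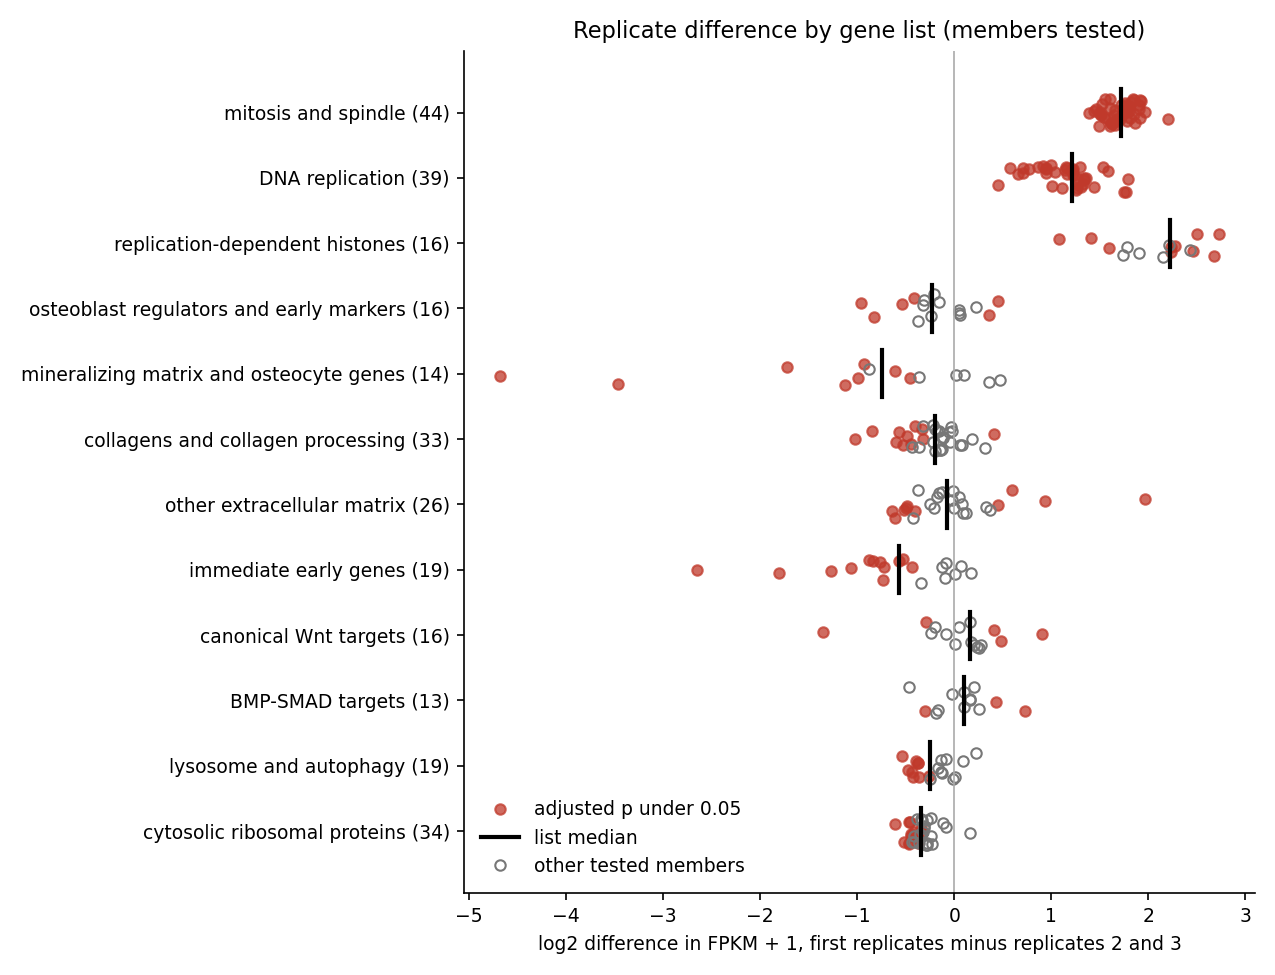
Log2 difference in FPKM + 1 (first replicates minus replicates 2 and 3) of each tested member of 12 gene lists, with members tested in brackets. Filled points have a limma adjusted p under 0.05, open points do not, and black bars are list medians. All points of the mitosis list lie between 1.39 and 2.20, and the points of the mineralizing list spread from -4.68 to 0.47.

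Of 14 mineralizing matrix and osteocyte genes tested, 8 were called lower and 0 higher, beside 9.80% lower and 15.2% higher over all genes tested. The list median was -0.75 against 0.02 over all genes, and 6 to 8 were called lower when 1 library was left out. Without BMP2+RSPO2 replicate 1 the list median was -0.47, with 7 called lower and 1 higher, beside 10.2% and 23.8% over all genes tested. The lower members were Dmp1, Spp1, Fam20c and Ank, named by rule, and Mgp, Smpd3, Slc20a1 and Enpp1, named after their values were seen. Their log2 differences ran from -4.68 (Dmp1) to -0.46 (Slc20a1). Enpp1 entered the tests only through replicates 2 and 3, so its direction was fixed by the filter. A change of Dmp1 between the replicates was also known from the earlier look.

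Dmp1 had 21.4 FPKM in BMP2+RSPO2 replicate 1, 4.25 in BMP2 replicate 1, 0.19 in RSPO2 replicate 1 and 0.16 in Control replicate 1. In replicates 2 and 3 it had 732.8 and 731.6 FPKM in BMP2+RSPO2, 233.4 and 191.4 in BMP2, 9.78 and 17.4 in RSPO2, and 27.1 and 34.8 in Control. In both sets BMP2+RSPO2 was highest and BMP2 next, and every first replicate lay far below its arm mates. The log2 difference in FPKM + 1 was -4.68 ± 0.256 (SE, limma adjusted p 2.9e-05), the largest fall of any gene named here. Within the arms it was -5.04 in BMP2+RSPO2, -5.34 in BMP2, -3.56 in RSPO2 and -4.77 in Control.

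Spp1 had 214.7 FPKM in BMP2+RSPO2 replicate 1, 380.0 in BMP2 replicate 1, 153.7 in RSPO2 replicate 1 and 200.9 in Control replicate 1. In replicates 2 and 3 it had 6051 and 6196 FPKM in BMP2+RSPO2, 6354 and 5866 in BMP2, 764.8 and 587.2 in RSPO2, and 1616 and 1402 in Control. All first replicates lay below all others, and they spanned a narrower range. The log2 difference was -3.46 ± 0.347 (SE, limma adjusted p 0.000173). The ratio of the BMP2 arm to Control in FPKM was 1.89 among first replicates and 4.05 among replicates 2 and 3, and that of the BMP2+RSPO2 arm to Control was 1.07 among first replicates and 4.06 among replicates 2 and 3. For Dmp1 the ratios went the other way, with 26.6 among first replicates and 6.86 among replicates 2 and 3 for the BMP2 arm, and 133.4 among first replicates and 23.7 among replicates 2 and 3 for the BMP2+RSPO2 arm, over a Control level of only 0.16 FPKM among first replicates. The test of whether the replicate difference depended on BMP2 gave -1.91 log2 units for Spp1 and -1.02 for Dmp1, and both missed the threshold (limma adjusted p 0.0634 for Spp1 and 0.190 for Dmp1).

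The same stretch of Dmp1 and Spp1 is shown to set them beside the division genes. The division genes displayed were chosen for holding both matches, so a contrast with them is no result. Dmp1 lies at chr5:104197375-104197574 and Spp1 at chr5:104434911-104435110, both on the plus strand in GRCm38.p6, from RefSeq, with capitals as above.
Dmp1: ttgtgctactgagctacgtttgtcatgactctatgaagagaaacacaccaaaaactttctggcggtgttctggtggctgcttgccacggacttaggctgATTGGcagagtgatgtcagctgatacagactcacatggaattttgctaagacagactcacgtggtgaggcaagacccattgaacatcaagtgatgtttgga
Spp1: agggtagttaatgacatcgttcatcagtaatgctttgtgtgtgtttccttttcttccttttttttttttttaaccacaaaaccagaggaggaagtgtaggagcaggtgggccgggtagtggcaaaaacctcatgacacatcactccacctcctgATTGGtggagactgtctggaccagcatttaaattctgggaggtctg
Each holds 1 CCAAT match, 101 bases before the gene start of Dmp1 and 46 bases before that of Spp1, and no CHR match. Of 13 mineralizing matrix genes with a promoter, 8 (61.5%) held a CCAAT match, 2 (15.4%) a CHR match and 0 both. Over the promoters of genes tested these shares were 33.3%, 7.12% and 2.66%, and over all promoters 30.0%, 12.7% and 3.83%. A CCAAT share above that of all genes tested was thus not particular to the division genes.

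Ank, which exports the mineral inhibitor pyrophosphate or its source, had 19.7, 20.8, 12.7 and 14.2 FPKM in the first replicates of BMP2+RSPO2, BMP2, RSPO2 and Control, and 28.8 to 144.6 FPKM with a median of 53.01 in replicates 2 and 3. Its groups did not overlap, and its log2 difference was -1.73 ± 0.228 (SE, limma adjusted p 0.000714). Enpp1, the enzyme that makes pyrophosphate outside the cell, was listed at 0.07 FPKM in BMP2+RSPO2 replicate 1 and at 0 in the other 3 first replicates, against 4.2 and 3.76 FPKM in BMP2+RSPO2, 1.47 and 1.11 in BMP2, and 0.06 to 0.14 in RSPO2 and Control. Enpp1 thus reached 1 FPKM only in replicates 2 and 3, entered the test through them alone and could only be called lower. Its log2 difference of -0.93 passed narrowly (limma adjusted p 0.0447), was called in only 2 of the 12 fits that leave out 1 library, and missed without BMP2+RSPO2 replicate 1 (adjusted p 0.0766). Slc20a1, a phosphate importer, fell by 0.46 on the log2 scale (limma adjusted p 0.0267), a call kept in 8 of the 12 such fits.

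Fam20c, the kinase that phosphorylates osteopontin and other secreted matrix proteins, had 9.93, 8.36, 5.26 and 5.33 FPKM in the first replicates of BMP2+RSPO2, BMP2, RSPO2 and Control, and 8.86 to 26.6 FPKM with a median of 14.9 in replicates 2 and 3. It fell by 1.00 ± 0.107 on the log2 scale (SE, limma adjusted p 0.000232), below both arm mates in every arm. Mgp, an inhibitor of calcification, fell by 1.12 ± 0.2 (SE, limma adjusted p 0.00379). The lower members thus included genes that restrain mineral, such as Mgp and Ank, beside matrix phosphoproteins.

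Ibsp, which encodes bone sialoprotein, had 1972, 2156, 232.5 and 457.3 FPKM in the first replicates of BMP2+RSPO2, BMP2, RSPO2 and Control, against 2885 and 2973 in BMP2+RSPO2, 1605 and 1724 in BMP2, 305.0 and 386.7 in RSPO2, and 683.4 and 793.4 in Control. The BMP2 first replicate lay above its arm mates and the other 3 lay below theirs, and the log2 difference was -0.36 ± 0.162 (SE, limma adjusted p 0.131). Bglap2, an osteocalcin gene with close copies that can share reads, had 57.9, 832.3, 29.3 and 68.3 FPKM in the first replicates of BMP2+RSPO2, BMP2, RSPO2 and Control, and 14.5 to 1380 FPKM in replicates 2 and 3. Its log2 difference was -0.88 ± 0.747 (SE, limma adjusted p 0.415), of which -4.51 came in the BMP2+RSPO2 arm and 0.40, -0.07 and 0.66 in BMP2, RSPO2 and Control. Mepe stayed at or below 0.16 FPKM in every library and was not tested.

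Of 16 osteoblast regulators and early markers tested, 4 were called lower and 2 higher, with a median of -0.23, beside 9.80% lower and 15.2% higher over all genes tested. Without Control replicate 1 the counts were 2 lower and 0 higher, and without BMP2+RSPO2 replicate 1 they were 6 lower and 1 higher. Alpl, which encodes alkaline phosphatase, had 24.7, 23.2, 8.65 and 9.20 FPKM in the first replicates of BMP2+RSPO2, BMP2, RSPO2 and Control, and 5.45 to 35.9 FPKM with a median of 13.4 in replicates 2 and 3. Its log2 difference of 0.05 ± 0.145 (SE) had a limma adjusted p of 0.828. For Runx2 the difference was -0.15 ± 0.1 (SE, limma adjusted p 0.288), and it passed without BMP2+RSPO2 replicate 1 at -0.28 (adjusted p 0.0279).

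Pth1r, the receptor for parathyroid hormone, had 105.1, 158.4, 48.7 and 74.6 FPKM in the first replicates of BMP2+RSPO2, BMP2, RSPO2 and Control, and 67.2 to 281.5 FPKM with a median of 178.1 in replicates 2 and 3, and fell by 0.83 ± 0.136 on the log2 scale (SE, limma adjusted p 0.00252). Sp7, the osterix transcription factor that acts downstream of Runx2, had 170.1, 192.5, 61.8 and 86.5 FPKM in the first replicates of BMP2+RSPO2, BMP2, RSPO2 and Control, and 64.8 to 309.7 FPKM in replicates 2 and 3. Each first replicate lay below its arm mates, and the log2 difference was -0.54 ± 0.130 (SE, limma adjusted p 0.0158, and 0.0697 without Control replicate 1). Vdr, the vitamin D receptor, fell by 0.96 (limma adjusted p 0.0154, and 0.0578 without BMP2 replicate 1). Within the arms the Vdr difference was -1.83 in BMP2+RSPO2 and -1.43 in BMP2, but -0.19 in RSPO2 and -0.40 in Control. Dlx3, a homeobox gene of osteoblasts, fell by 0.42 (limma adjusted p 0.0166, and 0.0664 without Control replicate 1).

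Of 33 collagen and collagen processing genes tested, 10 were called lower and 1 higher, with a median of -0.20 and 7 to 13 called lower when 1 library was left out. Over all genes tested, 9.80% were lower and 15.2% higher. Col1a1, the main chain of bone collagen, had 10637, 6628, 3935 and 4015 FPKM in the first replicates of BMP2+RSPO2, BMP2, RSPO2 and Control, and 5076 to 12887 FPKM in replicates 2 and 3. Each first replicate lay below its arm mates, and the log2 difference was -0.45 ± 0.110 (SE, limma adjusted p 0.0166, with 0.0851 as the highest value when Control or RSPO2 replicate 1 was left out). Adamts2, which cuts the amino end off procollagen, fell by 0.60 ± 0.0613 (SE, limma adjusted p 0.000192). Col5a3 fell by 0.85, Col5a1 by 0.40 and Col6a2 by 0.49 on the log2 scale, and each of these calls held without any single library.

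Lum, which encodes the small leucine-rich proteoglycan lumican that regulates collagen fibril width, had 64.5, 142.5, 458.6 and 420.5 FPKM in the first replicates of BMP2+RSPO2, BMP2, RSPO2 and Control. In replicates 2 and 3 it had 19.1 and 15.4 FPKM in BMP2+RSPO2, 42.7 and 38.5 in BMP2, 136.0 and 123.3 in RSPO2, and 76.3 and 81.6 in Control. The first replicate was above both mates in every arm and in both sets the arms ran from BMP2+RSPO2 (lowest) through BMP2 and Control to RSPO2 (highest), and the log2 difference was 1.96 ± 0.108 (SE, limma adjusted p 2.9e-05). Dcn, the related proteoglycan decorin, had 363.9, 646.5, 333.2 and 425.4 FPKM in the first replicates of BMP2+RSPO2, BMP2, RSPO2 and Control, and 146.5 to 409.1 FPKM in replicates 2 and 3. It was higher by 0.93 ± 0.0955 (SE, limma adjusted p 0.000188).

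Of the 26 other matrix genes tested, 4 were higher and 6 lower with a median of -0.07, and the lower count was 3 without RSPO2 replicate 1 and 10 without BMP2+RSPO2 replicate 1. Over all genes tested, 15.2% were higher and 9.80% lower, and the higher share of this list was near that. Ecm1 fell by 0.65 and Ltbp4, which stores latent TGF-β in the matrix, by 0.52 on the log2 scale. Of 7 metalloproteinase and inhibitor genes tested, 3 fell and 0 rose. They included Mmp2, a gelatinase, which fell by 0.48 (limma adjusted p 0.00594).

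**Figure D3:**
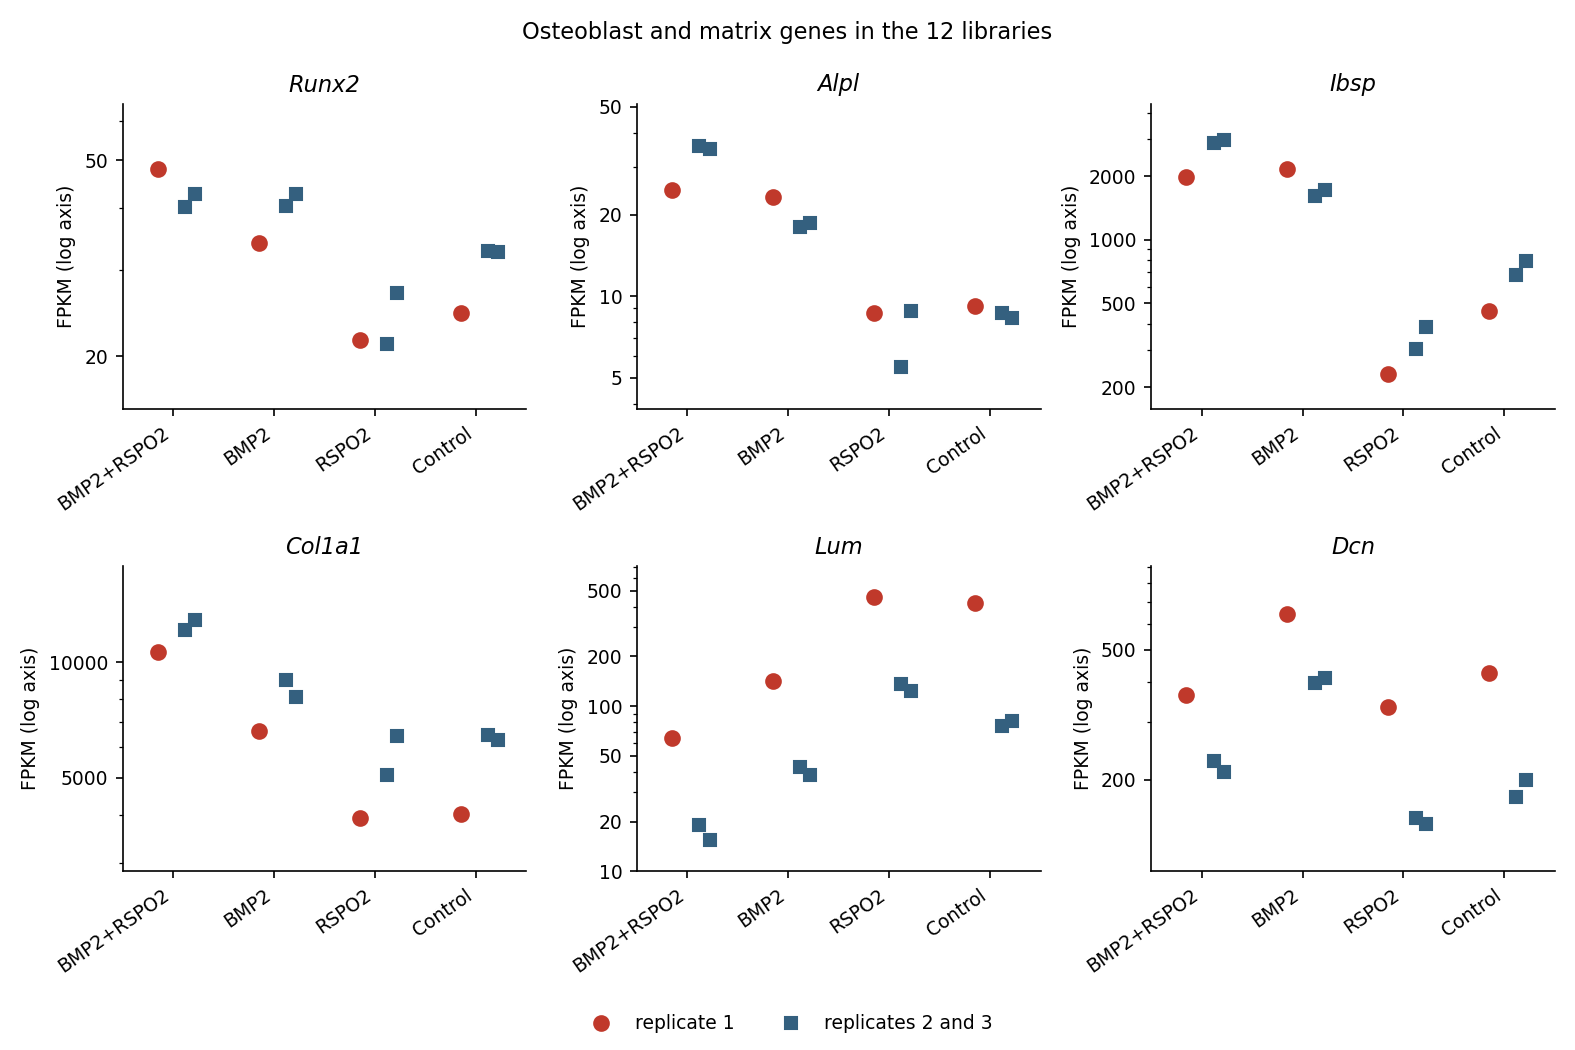
FPKM (log axis) of Runx2, Alpl, Ibsp, Col1a1, Lum and Dcn by arm, with replicate 1 as circles and replicates 2 and 3 as squares. The circles lie below both squares in all arms for Col1a1 and above both for Lum and Dcn, and they lie on either side for Runx2, Alpl and Ibsp.

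Immediate early genes, which growth signals switch on within minutes through ERK and serum response factors, were lower in the first replicates. Of 19 tested, 12 were called lower and 0 higher, beside 9.80% lower and 15.2% higher over all genes tested. The list median was -0.57 against 0.02 over all genes, and 8 to 13 were called lower when 1 library was left out. Egr3 had 2.12, 0.56, 0.69 and 0.54 FPKM in the first replicates of BMP2+RSPO2, BMP2, RSPO2 and Control, and 6.01 to 16.6 FPKM with a median of 10.98 in replicates 2 and 3. The groups did not overlap, and the log2 difference was -2.65 ± 0.150 (SE, limma adjusted p 2.91e-05).

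Its relatives followed in size. Egr2 had 1.22, 2.50, 1.73 and 2.45 FPKM in the first replicates of BMP2+RSPO2, BMP2, RSPO2 and Control, and 7.08 to 12.0 FPKM in replicates 2 and 3, a log2 difference of -1.81 ± 0.138 (SE, limma adjusted p 7.32e-05). Egr1 had 12.9, 9.97, 8.85 and 9.0 FPKM in the first replicates of BMP2+RSPO2, BMP2, RSPO2 and Control, and 20.7 to 35.8 FPKM in replicates 2 and 3, a log2 difference of -1.27 ± 0.156 (SE, limma adjusted p 0.000455). All 3 Egr genes were thus separated without overlap, and Fosb, a partner in the AP-1 factor, fell by 0.73 (limma adjusted p 0.00105). The other 7 members (Jun, Jund, Fosl2, Klf6, Zfp36, Ier3 and Dusp1) did not pass, with log2 differences between -0.34 and 0.17.

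Dusp6, the phosphatase that ERK signaling induces and that in turn switches ERK off, was among the 8 largest falls chosen by rule. It had 3.61, 2.71, 2.46 and 3.56 FPKM in the first replicates of BMP2+RSPO2, BMP2, RSPO2 and Control, and 12.7 to 21.5 FPKM with a median of 16.6 in replicates 2 and 3. There was a wide gap between the groups, and the log2 difference was -2.13 ± 0.112 (SE, limma adjusted p 2.9e-05). Other genes known as ERK targets were looked up after this was seen, and they are a description for that reason. Etv4, an Ets transcription factor gene, had 1.87, 2.38, 1.66 and 1.54 FPKM in the first replicates of BMP2+RSPO2, BMP2, RSPO2 and Control, and 5.58 to 13.6 FPKM in replicates 2 and 3. The log2 differences were -1.79 for Etv4, -1.04 for its relative Etv5 and -0.92 for Phlda1, each below both arm mates in every arm, whereas Spry2 had -0.40 and was called in 4 of the 12 fits that leave out 1 library. Dusp4 had -0.63, lost without BMP2+RSPO2 replicate 1 (adjusted p 0.0683), Dusp5 had -0.41, and Spry4 was not tested. Dusp4 reached 1 FPKM only in replicates 2 and 3, so it could only be called lower.

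**Figure D4:**
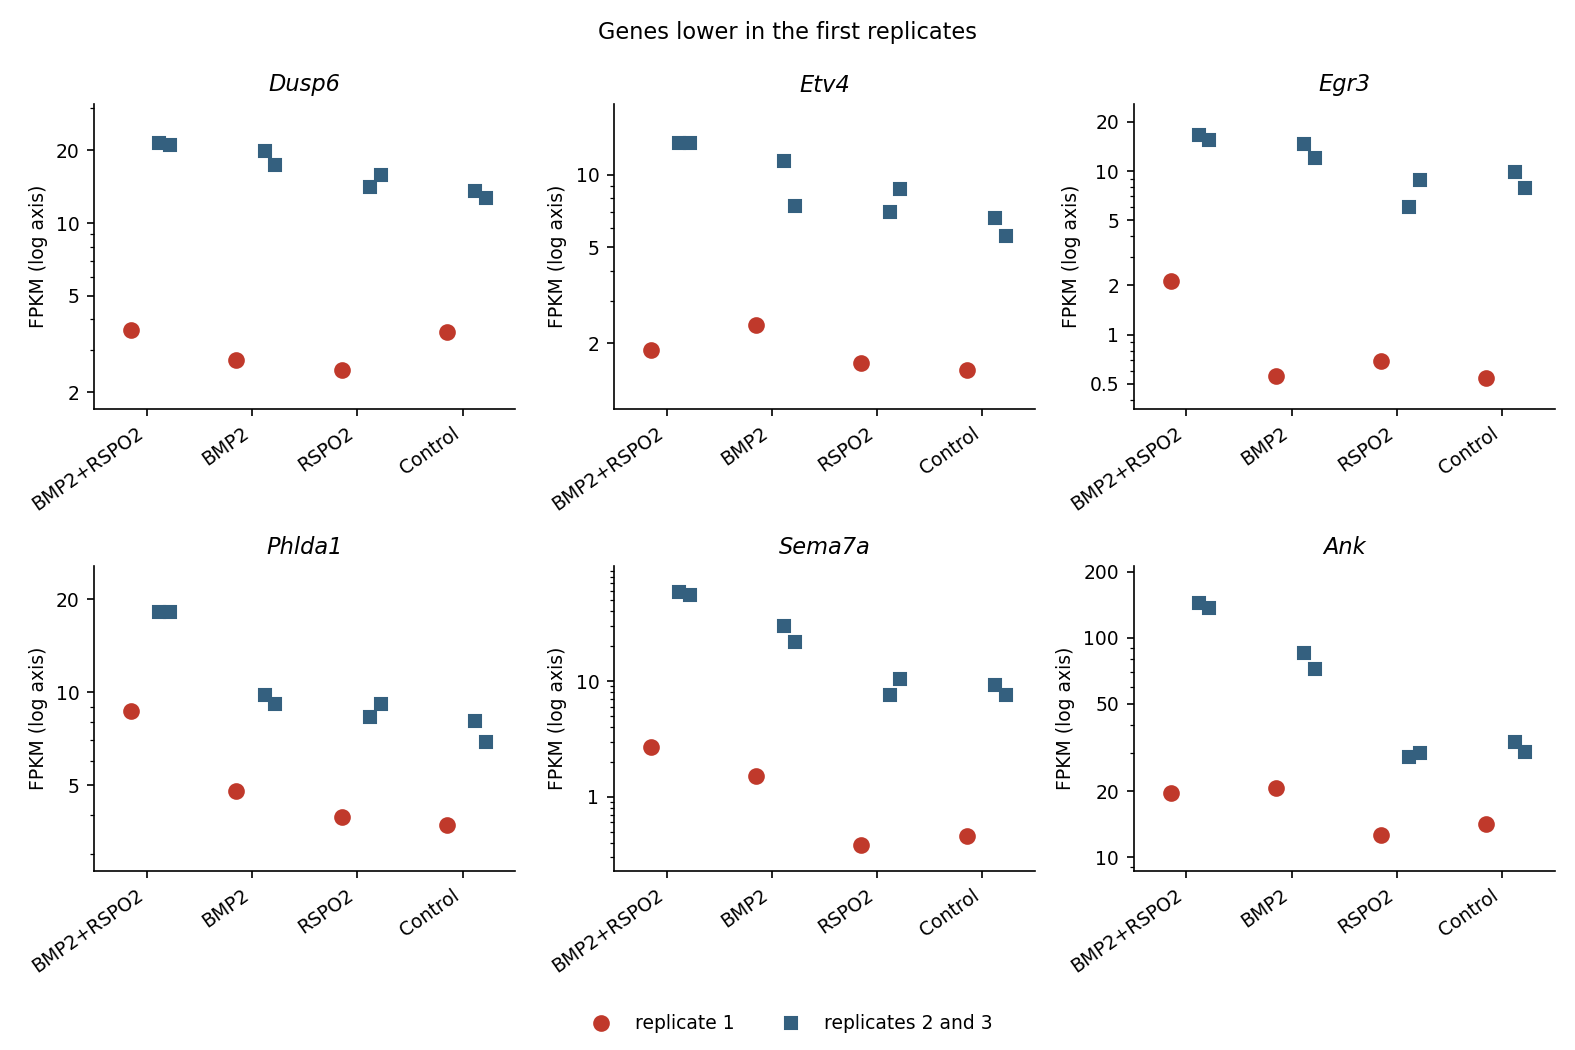
FPKM (log axis) of Dusp6, Etv4, Egr3, Phlda1, Sema7a and Ank by arm, with replicate 1 as circles and replicates 2 and 3 as squares. In each panel and each arm the circle lies below both squares, and for Dusp6 the circles lie between 2.46 and 3.61 FPKM in all arms.

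The other large falls had no list in common. Sema7a, a membrane-anchored semaphorin, had 2.68, 1.5, 0.38 and 0.46 FPKM in the first replicates of BMP2+RSPO2, BMP2, RSPO2 and Control, and 7.60 to 59.0 FPKM with a median of 16.0 in replicates 2 and 3, a log2 difference of -3.23 ± 0.195 (SE, limma adjusted p 2.91e-05). Its ratio of the BMP2 arm to Control was 3.26 among first replicates and 3.06 among replicates 2 and 3, and its groups did not overlap. Lbh, a transcription cofactor gene first described in limb bud and heart, had 34.3, 32.1, 18.2 and 20.6 FPKM in the first replicates of BMP2+RSPO2, BMP2, RSPO2 and Control, and 65.7 to 117.6 FPKM in replicates 2 and 3, a log2 difference of -1.87 ± 0.0880 (SE, limma adjusted p 2.88e-05). Hspb7, a small heat shock protein of muscle, had -1.88 and Megf10, an engulfment receptor, -1.87, and both were called in each of the 12 fits that leave out 1 library.

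Of 16 canonical Wnt targets tested, 3 were higher and 2 lower with a median of 0.16, shares near the 15.2% higher and 9.80% lower over all genes tested, and the lower count was 1 without Control or RSPO2 replicate 1. Axin2, the negative feedback scaffold of Wnt signaling, had 4.89, 3.73, 14.4 and 5.32 FPKM in the first replicates of BMP2+RSPO2, BMP2, RSPO2 and Control, and 4.37 and 4.34, 1.43 and 1.66, 9.70 and 11.1, and 3.72 and 3.47 FPKM in replicates 2 and 3 of the same arms. The RSPO2 arm was highest in both sets, each first replicate exceeded its mates, and the log2 difference was 0.48 ± 0.106 (SE, limma adjusted p 0.0101). Apcdd1, another feedback inhibitor, rose by 0.91 and Wif1, a secreted Wnt antagonist, fell by 1.35 on the log2 scale.

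Of 13 BMP and SMAD targets tested, 2 were higher and 1 lower with a median of 0.10, again near the 15.2% and 9.80% over all genes tested. The higher count was 0 without BMP2 replicate 1 and 1 without Control or RSPO2 replicate 1, and the lower count was 0 without Control replicate 1 and 2 without Control replicate 3 or BMP2+RSPO2 replicate 1. Id1, a direct SMAD target, had 5.34, 2.44, 0.37 and 1.62 FPKM in the first replicates of BMP2+RSPO2, BMP2, RSPO2 and Control, and 0.18 to 3.61 FPKM in replicates 2 and 3, and its log2 difference of 0.16 ± 0.150 (SE) had a limma adjusted p of 0.453. The 3 calls were Smad6 (-0.30, and adjusted p 0.0695 without Control replicate 1), Grem1 (0.44, lost without Control or BMP2 replicate 1) and Id2 (0.73, lost without the first replicate of Control, RSPO2 or BMP2).

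Among housekeeping lists, 13 of 34 ribosomal protein genes were lower and 0 higher with a median of -0.35, but the within-arm medians were -0.86 in BMP2+RSPO2, -0.20 in BMP2, -0.13 in RSPO2 and -0.21 in Control. The count of lower ribosomal genes was 30 after median-of-ratios scaling and 4 without Control replicate 1. Of 19 lysosome and autophagy genes, 9 were lower and 0 higher with a median of -0.25, with the smallest p for Gabarapl1, an autophagosome protein, at -0.43 (limma adjusted p 0.00095), and the largest fall for Ctsd, the lysosomal protease cathepsin D, at -0.54 (limma adjusted p 0.00608). Of 31 respiratory chain genes, 2 were higher and 1 lower, and 17 were higher without BMP2+RSPO2 replicate 1. Over all genes tested, 15.2% were higher and 9.80% lower, and without that library 23.8% and 10.2%.

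The size of the replicate difference was compared between the arms with and without BMP2 by an interaction term in limma. At an adjusted p under 0.05, 60 genes or 0.520% depended on BMP2, with 15 more positive (0.130%) and 45 more negative (0.390%) in the BMP2 treated arms, and 2290 genes had an unadjusted p under 0.05. With the replicate number as a block 4 genes were called, and leaving out BMP2 replicate 2 or 3 left 3, so the number of calls depended on single libraries. Of the 44 mitosis and spindle genes, 13 were among the 45 with a negative dependence, and all 13 had positive differences in every arm. None of the 13 calls held with the replicate block (0 of 13). Ccnb1, with -1.11 (limma adjusted p 0.0290), rose by 1.27 and 1.34 log2 units in BMP2+RSPO2 and BMP2, and by 2.60 and 2.23 in RSPO2 and Control. Aurkb (-1.003, adjusted p 0.0254) and Kif23 (-1.10, adjusted p 0.0290), which act at the dividing cell's midzone, were in the same group.

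The within-arm medians of the mitosis list were 1.56 in BMP2+RSPO2, 1.09 in BMP2, 2.30 in RSPO2 and 1.96 in Control. In the BMP2 arm the difference was smallest, and there replicates 2 and 3 had the highest summed level of the list among the later libraries, 648.1 and 684.7 FPKM, against 270.2 to 437.8 FPKM in the other 6. Dependence on RSPO2 was called for 0 genes (0%) by limma, with 1593 genes at an unadjusted p under 0.05, and for 3 genes with a pseudocount of 0.1.

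**Figure D5:**
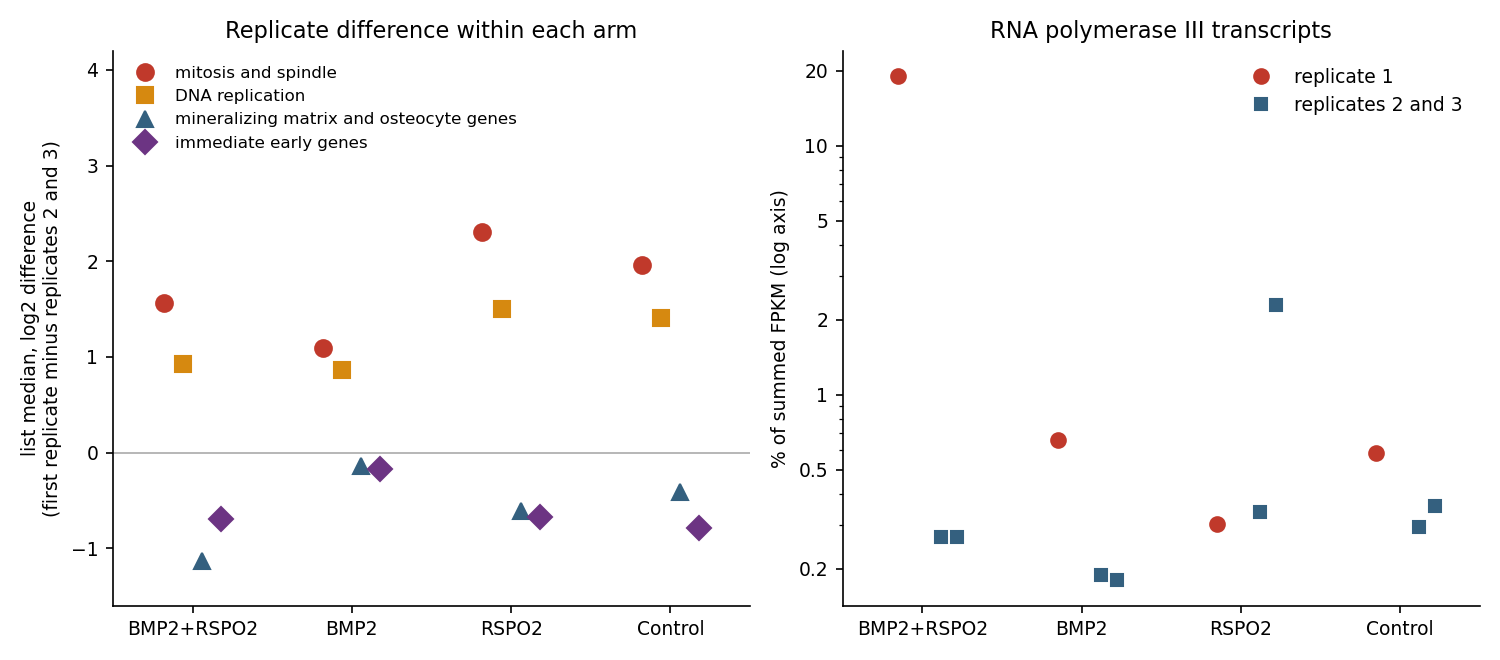
Left, median log2 difference in FPKM + 1 (first replicate minus replicates 2 and 3) of 4 gene lists in each arm. Right, RNA polymerase III transcripts as a percentage of summed FPKM (log axis) per library, with replicate 1 as circles and replicates 2 and 3 as squares. The mitosis median lies between 1.09 and 2.30 in the arms, and the BMP2+RSPO2 circle on the right lies at 19.1%.

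Sh3pxd2a, the podosome scaffold gene TKS5, had the largest dependence on BMP2 of the genes named. It had 76.2 FPKM in BMP2+RSPO2 replicate 1 and 58.5 in BMP2 replicate 1, but 3.75 in RSPO2 replicate 1 and 4.56 in Control replicate 1, and 56.7 to 78.6 FPKM in replicates 2 and 3. The 2 low libraries stood alone among the 12, and the dependence was 3.53 log2 units (limma adjusted p 0.000124). F13a1, a clotting factor subunit, had 0, 0.10, 34.0 and 12.5 FPKM in the first replicates of BMP2+RSPO2, BMP2, RSPO2 and Control, and 0.35 to 0.68 FPKM in replicates 2 and 3 of the BMP2 treated arms, against 1.08 to 4.33 in the others. Its dependence on BMP2 was -3.17 log2 units (limma adjusted p 0.000894), with the first replicates above their mates only in the arms without BMP2.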

How the data were processed

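RNA was sequenced from 12 libraries of MC3T3-E1 cells. Per the submitters' processing notes, the tools were cutadapt 1.10 for trimming, FastQC 0.10.1 for quality control, HISAT2 2.0 for alignment and StringTie 1.3.4 for quantification, while edgeR has no role given. The authors deposited FPKM per gene, rounded to 2 decimals, with p-value and q-value columns of an unstated comparison, which were not used. The notes name GRCm38 and mm10, while the gene identifiers belong to the C57BL/6NJ annotation, so coordinates are printed only from RefSeq. Depth is unknown: no steps of whole reads were found, so no counting intervals are given.

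The split into first replicates and replicates 2 and 3, the gene lists and the named genes were chosen with earlier results of these data known. Of 39032 genes, the 11548 that reached 1 FPKM in 3 or more libraries entered the tests on log2(FPKM + 1), a scale that understates the change of low genes, with limma 3.58.1 in R 4.3.3 (intensity trend, arm as covariate, Benjamini-Hochberg adjustment over all genes tested). The 2 dependence tests add products of the first-replicate term with BMP2 and RSPO2. Repeated symbols (50) were kept by identifier. Of 653 entries in 33 gene lists, 611 were in the table; others were not analysed here. Genes were named from a panel of 19, the 8 largest rises and falls that lay outside their mates in every arm, up to 4 called genes per list by p, and up to 6 per dependence test; others are marked. Alternatives were the pseudocount, the filter, quantile and median-of-ratios scaling, the replicate block, the variance prior and leaving out each library.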

Additional observations from a re-analysis of the deposited data

Results flagged for a closer look

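Several values of BMP2+RSPO2 replicate 1 lay far from the other 3 first replicates by a gap test on groups of 4, which flags about 1 in 20 groups by chance. They were its share of RNA polymerase III transcripts (19.1%), its summed FPKM (635139), the share of its 10 most abundant genes (57.8%), its median ribosomal protein gene (305.2 FPKM) and its median histone gene (40.7 FPKM). By the same test the within-arm log2 difference of BMP2+RSPO2 lay far from the other 3 arms for the medians of the ER folding list (-0.20), the ribosomal protein list (-0.86) and the respiratory chain list (-0.47), and for Bglap2 (-4.51). The difference of Ibsp in the BMP2 arm (0.37) lay far above those of the other arms.

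The replicate difference was of another size in the BMP2 treated arms than in the other arms for 10 named genes by the limma interaction term, but only Sh3pxd2a and F13a1, 2 of the 10, were also called with the replicate block and in all 12 fits that leave out 1 library. The log2 values were 3.53 for Sh3pxd2a, -3.17 for F13a1, -1.55 for Mvb12b, -0.93 for Ugdh, -1.003 for Aurkb, -1.10 for Kif23, -1.11 for Ccnb1, -1.07 for Shcbp1, -1.34 for Vdr and 0.79 for Tagln.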

How the results depend on the processing

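The 2890 calls became 2795 with a pseudocount of 0.1, 2337 with no filter on low values, 2290 with a minimum of 5 FPKM, 3324 after quantile normalization, 3314 after median-of-ratios scaling and 2876 with a constant variance prior. Lower calls were 1901 and 1824 under the 2 scalings, against 1132. Leaving out 1 library gave 1803 to 3898 calls, 1061 to 2726 higher and 742 to 1268 lower. Dependence on BMP2 ranged from 3 to 3298 calls (1 to 779 higher, 2 to 2519 lower) and dependence on RSPO2 from 0 to 3375 (0 to 747 higher, 0 to 2628 lower). The highest of these counts came without BMP2 replicate 1 and without RSPO2 replicate 1, and both dependence counts were also high without Control replicate 1 (3291 and 3348). Without BMP2+RSPO2 replicate 1 the counts were 24 and 5, BMP2 dependence had 22 without RSPO2 replicate 1, and RSPO2 dependence had 4 without BMP2 replicate 1. Higher BMP2 dependence calls were 26 under each scaling, against 15. RSPO2 dependence gave 3 calls with a pseudocount of 0.1 (3 lower), 8 with no filter (3 higher, 5 lower) and 1 with a minimum of 5 FPKM (1 lower).

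With the replicate number as a block (replicate 2 against 3 as a term), 2460 genes were called (1524 higher, 936 lower), BMP2 dependence had 4 (1 higher, 3 lower) and RSPO2 dependence 0. The numbers were not taken to pair samples across arms. Same-numbered libraries deviated together with correlations of 0.161 to 0.631 for number 1 and 0.246 to 0.408 for number 2. For number 3 the correlations ran from -0.124 to 0.311 with a median of 0.137. Deviations were taken from the mean of the 3 replicates of an arm, so these ranges are not independent of each other. With 1 first replicate left out, each dependence term sets the replicate difference of 1 arm against that of 1 other arm. In the fits with the highest dependence counts, BMP2+RSPO2 was 1 of these arms. The causes of the shifts between fits were not tested. With no counts deposited, the precision of low levels is unknown.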

Other observations

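Cd74, the invariant chain of antigen presentation, was picked after its values were seen. It had 0, 0.41, 0.34 and 0.36 FPKM in the first replicates of BMP2+RSPO2, BMP2, RSPO2 and Control, and 5.96 and 6.21 FPKM in BMP2+RSPO2, 0.32 and 9.26 in BMP2, 8.53 and 7.96 in RSPO2, and 0.63 and 8.73 in Control in replicates 2 and 3. Replicate 2 of BMP2 and of Control thus lay with the first replicates, and the other 6 libraries lay above 5 FPKM.

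Of 19 genes of the ATF4 amino acid response tested, 5 were lower and 1 higher in the first replicates. Between 2 and 14 were lower when 1 library was left out, with 14 without BMP2 replicate 1. The within-arm list medians were -0.58 in BMP2+RSPO2, 0.35 in BMP2, -0.85 in RSPO2 and -0.61 in Control, so the BMP2 arm went the other way. Over all genes tested, 9.80% were lower and 15.2% higher, which also stands beside the YAP and SRF counts below. Atf5 had 44.2, 52.7, 36.5 and 36.2 FPKM in the first replicates of BMP2+RSPO2, BMP2, RSPO2 and Control, and 54.5 to 205.1 FPKM in replicates 2 and 3. Its log2 difference was -1.5 (limma adjusted p 0.00649). Within the arms this difference was -1.71 in BMP2+RSPO2, only -0.07 in BMP2, -2.25 in RSPO2 and -1.96 in Control. Slc7a11, the cystine importer, moved the other way, by 0.73 (limma adjusted p 0.000136). Of 11 YAP and SRF targets tested, 2 were lower, F3, which encodes tissue factor, by -1.13 and Axl by -0.54 on the log2 scale. Col2a1 and Col11a2, collagen genes of cartilage, differed by -0.94 and -1.17, and Hapln1, which links aggrecan to hyaluronan, by 1.1. Foxs1 (-1.6) and Hrc (-1.84), picked after their values were seen, lay below both arm mates in every arm.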
